A study of Mus musculus with 25 samples.

Results

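The day-night difference in ribosome-bound mRNA of spinal cord cholinergic neurons was compared between mice with and without *Bmal1* in these neurons. For each gene, the log2 fold of ZT20 against ZT8 in controls was subtracted from the same fold in *ChAT-BKO* mice. The result is the change in day-night difference, and it used the 24 immunoprecipitate (IP) libraries of the 25 libraries in the series. Controls were *ChAT-Cre;RiboTag fx/+* mice and *ChAT-BKO* mice were *ChAT-Cre;RiboTag fx/+;Bmal1 fx/fx*, so both genotypes carry the Cre and the tagged ribosome. The mice were males of 6 mo on a C57BL/6J background, collected at ZT8 (light phase) or ZT20 (dark phase), with 6 libraries per genotype and time and 1 spinal cord per homogenate. ChAT-Cre acts in cells that have expressed choline acetyltransferase, so *Bmal1* is lost in cholinergic neurons inside and outside the spinal cord and is kept in other cells.

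*Bmal1* (listed by its symbol *Arntl*) encodes the partner of CLOCK in the heterodimer that binds E-box elements and drives the *Per*, *Cry*, and *Nr1d* genes, whose products then repress that drive. Daily mRNA differences in a tissue can come from such a clock within the cell, or from signals that the rest of the animal sends by day and night, such as feeding, body temperature, and glucocorticoids. A comparison of the day-night difference with and without *Bmal1* therefore separates genes whose difference shrinks, persists, or grows. With 2 time points, a shift of the peak and a loss of amplitude cannot be told apart.

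The libraries held between 4.04 and 31.7 M counts each, given below as CPM (counts scaled to library size). A gene with no count could still be present at up to 0.0947 to 0.743 CPM, depending on the library, when counting error alone is considered. The 6 cholinergic markers examined, such as *Chat* and *Slc18a3*, had a mean IP level above that in the single pooled input, while oligodendrocyte and astrocyte RNA was still present, with *Mbp* at a mean of 958 CPM against 13246 CPM in the input. The RNA is bulk, and fewer cells of a type and less RNA per cell cannot be told apart. *Arntl* checked the genotype labels: it was at 6.22 to 9.99 CPM (median 8.55) in controls at ZT8 and 7.60 to 10.9 CPM (median 8.50) at ZT20, against 1.97 to 3.30 CPM (median 2.60) and 1.35 to 2.80 CPM (median 1.81) in *ChAT-BKO* libraries. The genotypes did not overlap at either time. Counts per gene do not separate transcripts that lack the deleted exon from intact ones, and the source of the remaining counts was not tested.

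Upstream sequence is shown for some of the named genes whose windows held a searched element, to let the elements be seen beside the values. Shown windows were thus picked for holding one, and a link between element and change was not tested. RefSeq windows (GRCm38.p6) of the 250 bases before a transcript start were found for 27 of the 36 genes whose values per group were tabulated. *Hspa1b* and *Hspa1a* encode the inducible HSP70 chaperones, and *Hspa1b* had the smallest p for the change among genes above 10 CPM. Capitals mark the core of the heat shock element, GAANNTTC, which was searched on both strands and is found in 6.69% of the 32851 windows.

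Hspa1b, chr17:34959239-34959488, minus strand: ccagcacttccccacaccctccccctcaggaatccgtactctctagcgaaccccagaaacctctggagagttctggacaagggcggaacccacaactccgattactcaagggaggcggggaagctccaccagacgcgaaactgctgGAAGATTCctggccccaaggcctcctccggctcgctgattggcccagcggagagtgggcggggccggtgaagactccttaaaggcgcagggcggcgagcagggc

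Hspa1a, chr17:34972157-34972406, minus strand: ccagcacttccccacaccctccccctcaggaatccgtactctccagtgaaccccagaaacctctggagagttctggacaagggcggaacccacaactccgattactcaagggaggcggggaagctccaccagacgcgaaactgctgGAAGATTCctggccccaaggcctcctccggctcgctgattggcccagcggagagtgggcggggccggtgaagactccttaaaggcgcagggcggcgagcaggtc

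These windows were identical at 247 of 250 bases, and the element lay at the same distance, its first base 104 bases before the start. The core was not found in the windows of the heat shock genes *Dnajb1* and *Dnajb4*. *Hspa5* encodes BiP, the chief chaperone of the endoplasmic reticulum (ER). Its window held 1 ER stress element (CCAAT, any 9 bases, then CCACG, both strands), marked in capitals and found in 0.113% of windows. No such element was found in the windows of *Pdia4* and *Xbp1*.

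Hspa5, chr2:34771840-34772089, plus strand: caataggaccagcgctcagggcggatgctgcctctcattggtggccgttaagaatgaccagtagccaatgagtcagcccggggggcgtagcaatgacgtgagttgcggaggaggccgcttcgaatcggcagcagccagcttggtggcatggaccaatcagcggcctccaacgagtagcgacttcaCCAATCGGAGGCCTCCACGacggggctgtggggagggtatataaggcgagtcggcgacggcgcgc

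*Ciart* and *Cry1* encode repressors of the *Bmal1* heterodimer. Capitals mark the canonical E-box, CACGTG (the same on both strands), which is found in 6.02% of windows. *Ciart* held 3 and *Cry1* held 1, and none was found in the windows of *Arntl*, *Dbp*, *Nfil3*, *Nr1d1*, or *Nr1d2*.

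Ciart, chr3:95882229-95882478, minus strand: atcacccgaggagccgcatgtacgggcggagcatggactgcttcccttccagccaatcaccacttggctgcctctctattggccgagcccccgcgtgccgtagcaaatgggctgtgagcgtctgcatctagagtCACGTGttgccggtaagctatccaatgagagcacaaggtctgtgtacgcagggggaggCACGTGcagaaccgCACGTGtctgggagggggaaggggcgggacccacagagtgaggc

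Cry1, chr10:85185055-85185304, minus strand: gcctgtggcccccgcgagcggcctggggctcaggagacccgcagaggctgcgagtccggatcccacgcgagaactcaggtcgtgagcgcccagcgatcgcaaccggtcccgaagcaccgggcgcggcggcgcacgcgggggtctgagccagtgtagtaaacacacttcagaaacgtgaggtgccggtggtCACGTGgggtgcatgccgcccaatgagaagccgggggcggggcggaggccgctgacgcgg

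To ask which day-night differences depended on *Bmal1*, the change was tested with edgeR's quasi-likelihood F test across 21738 genes, with Benjamini-Hochberg adjustment. No change was called at an adjusted p under 0.05 (0% of genes tested), and the smallest adjusted p was 0.864. At an unadjusted p under 0.05 there were 848 genes (3.90%). DESeq2 and limma voom also called 0, with 565 and 1029 genes at an unadjusted p under 0.05. Adding each library's slope of level on transcript length as a covariate called 1 gene, *Sprr1a*. This result does not show that the differences were equal in both genotypes, since most genes had a wide interval.

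Within controls, 26 genes were higher at night (0.120% of genes tested) and 6 were higher by day (0.0276%). In *ChAT-BKO* neurons, 104 were higher at night (0.478%) and 36 by day (0.166%). At an unadjusted p under 0.05, 1890 genes differed between the times in controls (8.69%) and 2260 in *ChAT-BKO* neurons (10.4%). The difference between these counts was not itself tested, and the change was not called for any gene. For the average of both genotypes, which uses all 24 libraries, 358 genes were night-high (1.65%) and 212 were day-high (0.975%). The counts of calls moved with the method. For the average, DESeq2 called 458 night-high and 414 day-high genes, and the fit with the length covariate called 808 and 820.

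Differences called in controls were mostly found in *ChAT-BKO* neurons as well. Of the 32 genes called in controls, 32 had the same sign in *ChAT-BKO* neurons, 30 also had an unadjusted p under 0.05 there (against the 10.4% of all genes above, in either direction), and 24 were called. The median size was 0.52 (log2) in controls and 0.45 in *ChAT-BKO* neurons. Of the 140 genes called in *ChAT-BKO* neurons, 139 had the same sign in controls, 117 with an unadjusted p under 0.05 (against 8.69% of all genes in either direction), and the median size was 0.42 in *ChAT-BKO* neurons and 0.25 in controls. A list picked in a genotype holds values that are high there by chance as well, so each list favours a smaller difference in the other genotype. The control and *ChAT-BKO* differences share no library, but they come from the same fit and normalization.

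The clock output gene *Dbp*, a PAR bZIP transcription factor, showed the largest day-high difference among the named genes above 10 CPM. It was at 13.5 to 23.1 CPM (median 16.8) at ZT8 and 8.06 to 11.7 CPM (median 9.30) at ZT20 in controls. In *ChAT-BKO* libraries it was at 11.3 to 16.0 CPM (median 13.3) and 7.49 to 9.64 CPM (median 8.07). Day lay above night with no overlap in either genotype, and the log2 difference was -0.86 (SE 0.12, adjusted p = 0.00025) in controls and -0.73 (SE 0.13, adjusted p = 0.0023) in *ChAT-BKO* neurons from edgeR. The change was 0.14, with a 95% interval from -0.21 to 0.49, and this interval leaves out a full loss of the control difference.

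*Xbp1*, a transcription factor of the unfolded protein response, was night-high to a similar extent. It was at 27.3 to 37.4 CPM (median 34.5) at ZT8 and 41.0 to 53.5 CPM (median 49.2) at ZT20 in controls, and at 27.9 to 35.1 CPM (median 32.7) and 45.1 to 51.3 CPM (median 48.4) in *ChAT-BKO* libraries. Night lay above day with no overlap in both genotypes, by 0.54 and 0.57 on the log2 scale, and the change was 0.03 (interval -0.18 to 0.23). *Uhrf2*, a ubiquitin ligase that binds modified cytosine, rose from a median of 17.4 to 25.9 CPM in controls and from 17.0 to 25.5 CPM in *ChAT-BKO* libraries, a difference of 0.59 in each, with an interval of the change from -0.24 to 0.24. *Luc7l*, encoding a factor of the U1 splicing particle, had the narrowest interval of the genes named here, from -0.12 to 0.11, around night differences of 0.30 and 0.29. *Xbp1*, *Uhrf2*, and *Luc7l*, like *Dbp*, were among the genes with the smallest p for the average of both genotypes. That choice favours a clear difference in each genotype, so the lack of overlap is in part set by it.

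**Figure D1:**
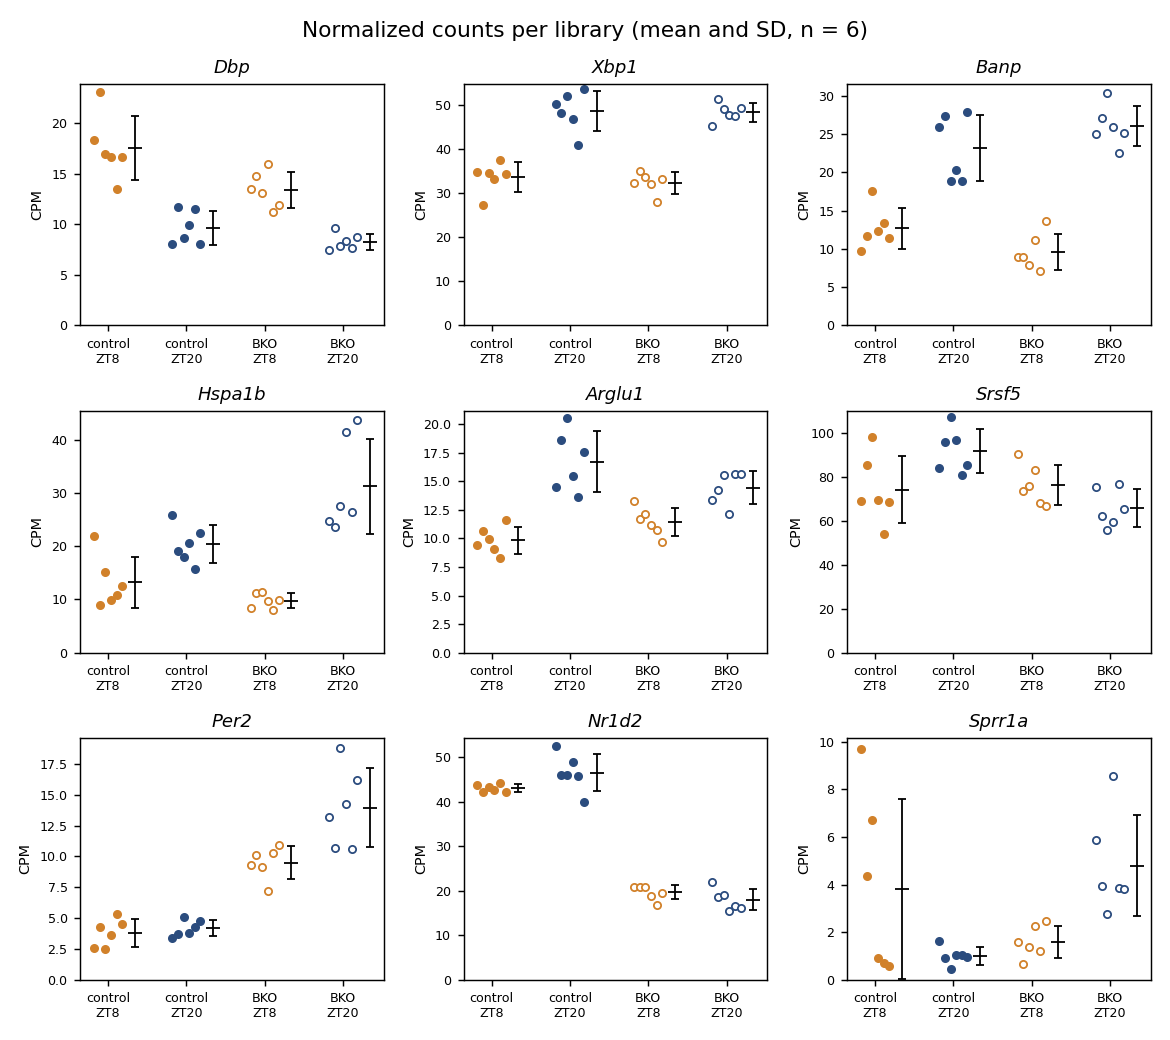
Normalized counts (CPM) of 9 genes in each of the 24 libraries, with controls as filled and *ChAT-BKO* as open circles, ZT8 in orange and ZT20 in blue, and the mean and SD of each group (n = 6) beside the points. The times stay apart in both genotypes for *Dbp*, *Xbp1*, and *Banp*, while *Srsf5* overlaps between times in each genotype and *Sprr1a* has 3 high libraries among the controls at ZT8.

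The other genes with the smallest p for the average were of the same kind. The night-high group also held *Acin1*, *Tra2a*, *Prpf38b*, and *Ythdc1*, which act in mRNA splicing, and *P4ha1*, a collagen prolyl hydroxylase. Their night differences were 0.34 to 0.55 in controls and 0.44 to 0.70 in *ChAT-BKO* neurons, and the changes ran from -0.06 (*Tra2a*) to 0.17 (*P4ha1*). The day-high group held *Chpf2*, an enzyme of chondroitin synthesis, at 178 to 220 CPM (median 187) at ZT8 and 134 to 160 CPM (median 148) at ZT20 in controls, and at 178 to 200 CPM (median 183) and 127 to 152 CPM (median 145) in *ChAT-BKO* libraries. The times did not overlap, and the log2 difference was -0.38 in both genotypes. It also held *Prkab1*, a subunit of AMP-activated protein kinase (-0.44 and -0.50), *Xpa* of nucleotide excision repair (-0.54 and -0.65), *Foxo6* (-0.40 and -0.44), *Mfsd10* (-0.40 and -0.53), *Ewsr1* (-0.25 and -0.31), *Smg5* of nonsense-mediated decay (-0.23 and -0.25), and *Hnrnpdl* (-0.22 and -0.42). Each of these genes was called for the average, which chose them, and none was called for the change.

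To put a number on the whole, the *ChAT-BKO* difference was set against the control difference over genes called for the average, a choice that favours neither genotype. All 570 of them had the same sign in both genotypes, against 59.5% of all genes tested, a count that the choice itself pushes up. The change pointed to a larger difference in *ChAT-BKO* neurons for 358 (235 night-high and 123 day-high) and to a smaller one for 212. The median signed change, positive where the *ChAT-BKO* difference is larger, was 0.04 on the log2 scale (0.01 over all genes tested), with a jackknife SE over libraries of 0.03. It was 0.02 without control ZT20 replicate 5, 0.06 without *ChAT-BKO* ZT8 replicate 2, and 0.0094 with the length covariate. The slope over the 564 genes with a standard error was 1.13 (errors in variables), with a jackknife SE of 0.21, and a slope of 1 stands for equal differences. Without 1 library at a time the slope ran from 1.01 to 1.20, and it lay below 1 with limma voom (0.94) and with a replicate block (0.86). Pearson's r across these genes was 0.86 and Spearman's rho 0.89, as a description, since genes are not independent replicates. The choice on the average leaves a night-high and a day-high cloud, which itself raises both values. Within the night-high genes r was 0.61 and rho 0.63, and within the day-high genes r was 0.80 and rho 0.58.

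**Figure D2:**
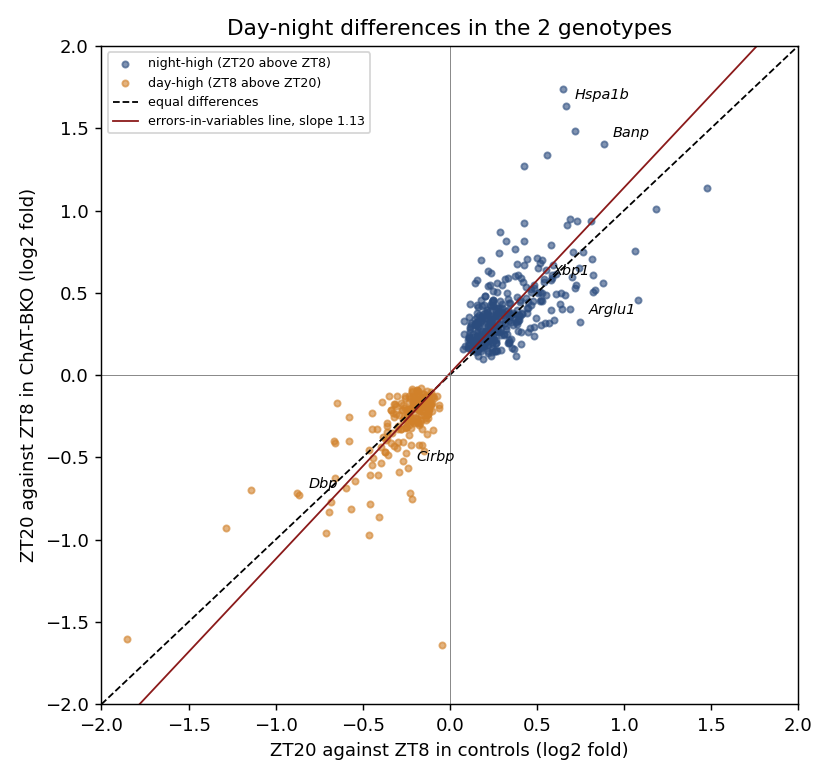
Log2 fold of ZT20 against ZT8 in controls (x axis) and in *ChAT-BKO* neurons (y axis) for genes called for the average of both genotypes, night-high in blue and day-high in orange; 558 genes are plotted and 6 lie outside the axes. The points follow the dashed line of equal differences, and the errors-in-variables line has a slope of 1.13.

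The slope depended on which genes entered it. Over the 31 genes called in controls with a standard error it was 0.82, and over the 140 called in *ChAT-BKO* neurons it was 1.496, the opposite tilts that such choices give. Ordinary least squares of *ChAT-BKO* on control differences gave 0.97, and the inverse of the regression of control on *ChAT-BKO* differences gave 1.30. Over the 13719 genes with a mean of at least 1 CPM and a standard error, with no choice on the difference, the errors-in-variables slope was 1.12, but r was 0.31. Each gene's place was measured in 6 against 6 libraries per genotype, and the median size of the difference over the 570 genes was 0.24 in controls and 0.30 in *ChAT-BKO* neurons.

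Counted by interval, 536 of the 570 genes had a 95% interval of the change that includes 0, 25 had one wholly on the side of a larger difference in *ChAT-BKO* neurons, 3 had one wholly on the side of a smaller one, and 6 had none because a group was without counts. An unadjusted p under 0.05 for the change was reached by 32 of the 570, or 5.61%, against 3.90% of all genes tested. The interval lay within 1.5-fold in either direction for 465. For 399 it left out a full loss of the control difference, and for 124 it left out a loss of 50% of it. The choice on the average, which holds the *ChAT-BKO* difference, itself pushes both counts up. They are thus no measure of persistence by themselves. By calls within each genotype, 24 of the 570 were called in both, 8 in controls and not in *ChAT-BKO* neurons, 113 in *ChAT-BKO* neurons and not in controls, and 425 in neither alone.

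Genes on the larger side were led by HSP70. *Hspa1b* was at 9.01 to 22.0 CPM (median 11.6) at ZT8 and 15.8 to 25.9 CPM (median 19.9) at ZT20 in controls, and at 8.07 to 11.3 CPM (median 9.76) and 23.5 to 43.6 CPM (median 27.0) in *ChAT-BKO* libraries. The times overlapped in controls and did not in *ChAT-BKO* libraries. The night difference was 0.66 (SE 0.18) in controls and 1.63 (SE 0.18) in *ChAT-BKO* neurons, a change of 0.97 (SE 0.25, interval 0.45 to 1.49, adjusted p = 1 from edgeR). *Hspa1a*, whose coding sequence is nearly the same and which shares reads with *Hspa1b*, was at a median of 34.7 and 42.1 CPM in controls, with 1 library at ZT8 at 53.5 CPM, and at 36.8 and 54.7 CPM in *ChAT-BKO* libraries, a change of 0.41. With the counts of the pair summed, the change was 0.59 (SE 0.17, adjusted p = 1 from edgeR).

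*Banp*, a nuclear protein that binds CpG-rich promoters, had the smallest p of any gene for the average. It was at 9.68 to 17.6 CPM (median 12.0) at ZT8 and 18.9 to 27.8 CPM (median 23.1) at ZT20 in controls, and at 7.10 to 13.6 CPM (median 8.92) and 22.5 to 30.4 CPM (median 25.5) in *ChAT-BKO* libraries. Night lay above day with no overlap in both genotypes, and the log2 difference was 0.88 and 1.40, a change of 0.52 (interval 0.12 to 0.92, adjusted p = 1 from edgeR). The ER chaperone *Pdia4*, the HSP40 gene *Dnajb1*, and the collagen hydroxylase *P4ha2* had changes of 0.23, 0.28, and 0.27 with intervals that leave out 0. None of these changes passed the adjustment.

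On the smaller side, *Arglu1*, a splicing and transcription cofactor, was the gene with the smallest p for the change among those called in controls with a standard error. It was at 8.27 to 11.7 CPM (median 9.69) at ZT8 and 13.6 to 20.6 CPM (median 16.5) at ZT20 in controls, without overlap, and at 9.69 to 13.3 CPM (median 11.5) and 12.1 to 15.6 CPM (median 14.9) in *ChAT-BKO* libraries, where the times overlapped. The night difference was 0.75 (adjusted p = 0.00037 from edgeR) in controls and 0.33 (adjusted p = 0.193) in *ChAT-BKO* neurons, and the change was -0.42 (SE 0.15, interval -0.72 to -0.11, adjusted p = 1 from edgeR). *Odf2* and *Accs*, both day-high, were the other genes with intervals wholly on the smaller side, with changes of 0.23 and 0.48 against control differences of -0.39 and -0.65. *Srsf5*, an SR splicing factor named after its values were seen, was not among these, and its medians moved in opposite directions. It was at a median of 69.3 and 91.0 CPM in controls and 74.8 and 63.9 CPM in *ChAT-BKO* libraries at ZT8 and ZT20. Its times overlapped in each genotype, while at ZT20 *ChAT-BKO* libraries lay below controls without overlap. The change was -0.53 (interval -0.84 to -0.22, adjusted p = 1 from edgeR).

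The gene with the smallest p for the change was *Sprr1a*, a small proline-rich protein known as a marker of injured and regenerating neurons. It was at 0.569, 0.726, 0.923, 4.36, 6.74, and 9.68 CPM in the 6 controls at ZT8, at 0.470 to 1.65 CPM (median 1.00) at ZT20, and in *ChAT-BKO* libraries at 0.673 to 2.45 CPM (median 1.48) at ZT8 and 2.75 to 8.58 CPM (median 3.91) at ZT20. The control libraries at ZT8 fell into 3 low and 3 high ones, and *ChAT-BKO* night lay above *ChAT-BKO* day. The change was 3.34 (SE 0.70, interval 1.92 to 4.77, adjusted p = 0.864 from edgeR). The summed level of the 20 skeletal muscle markers was 28.0, 143, and 76.8 CPM in the 3 high control libraries and 29.9 to 60.8 CPM in the others at ZT8, and its part in this value was not tested. The slope of level on transcript length was -0.26 to -0.24 in the 3 high libraries (replicates 1 to 3) and -0.20 to -0.11 in the others at ZT8. Controls at ZT20 had slopes from -0.25 to -0.16. The cause of the split was not tested.

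The rest of the 10 smallest p-values for the change were mostly sparse or unannotated genes. *Gm5931*, *LOC118567983*, *Adamts7*, *LOC118567348*, and *Gm5913* had means under 1 CPM, and *Adamts7* had 0 counts in each of the 6 *ChAT-BKO* libraries at ZT20, so no fold is given. *Gm35934* was at a median of 2.42 and 2.80 CPM in controls and 3.66 and 2.35 CPM in *ChAT-BKO* libraries, a change of -0.81, and it was the 1 gene called in *ChAT-BKO* neurons with the opposite sign in controls. *Gm20544* and *Gm15501* had changes of -0.92 and -0.59. Skeletal muscle markers had a median change of 1.25, positive for 14 of 20, and 0 were called. An unadjusted p under 0.05 was reached by 8 of 20 (against 3.90% of all genes tested), of which *Myh7*, a slow myosin, had a change in the other direction (-0.34). Their summed level was 25.97 to 42.1 CPM in 5 of the *ChAT-BKO* libraries at ZT8 and 211 CPM in replicate 4, and 27.3 to 130 CPM at ZT20. Markers that rise together in such libraries are not independent, so the 8 of 20 is no count of independent genes. *Myh1*, a fast myosin, had 0 counts in 4 of the 24 libraries.

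Core clock genes were examined as 23 genes in 4 lists. Of these, 18 had an interval of the change within 1.5-fold (against 45.7% of all genes tested), 17 had the same sign in both genotypes (against 59.5%), and 2 had an unadjusted p under 0.05 for the change (against 3.90%), with 0 called. The 45.7% depends on level, at 0% under 1 CPM, 30.6% from 1 to 10 CPM, 95.4% from 10 to 100 CPM, and 98.8% from 100 CPM. It therefore does not compare clock genes with genes of like level. *Dbp* was the 1 clock gene called in controls, and *Dbp*, *Ciart*, and *Nfil3* were called for the average. The median size at which a clock gene would have reached an unadjusted p of 0.05 was 0.29, so a loss of a small difference was not detectable for most of them.

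Among the E-box driven repressors, *Cry1* was at 3.10 to 4.35 CPM (median 3.94) at ZT8 and 3.48 to 4.33 CPM (median 4.06) at ZT20 in controls, and at 15.2 to 17.8 CPM (median 16.0) and 14.4 to 20.1 CPM (median 17.7) in *ChAT-BKO* libraries. The genotypes did not overlap, and the day-night difference was 0.04 in controls and 0.12 in *ChAT-BKO* neurons, a change of 0.08 (interval -0.21 to 0.36). *Per2* was at a median of 3.97 and 4.01 CPM in controls and 9.72 and 13.7 CPM in *ChAT-BKO* libraries, a day-night difference of 0.11 and 0.58 and a change of 0.47 (interval 0.01 to 0.94, adjusted p = 1 from edgeR). *Ciart*, with 3 E-boxes in its window, was lower in *ChAT-BKO* libraries without overlap, at a median of 11.7 and 9.19 CPM against 4.98 and 4.07 CPM, and its day-high difference was -0.37 and -0.40. *Cry2*, *Per1*, *Per3*, *Bhlhe40*, and *Bhlhe41* had changes from 0.01 (*Bhlhe40*) to 0.20 (*Per1*).

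The REV-ERB and ROR receptors and *Nfil3* act on the *Bmal1* promoter and on D-box genes. *Nr1d2* (REV-ERB beta) was at 42.1 to 44.3 CPM (median 43.0) at ZT8 and 39.9 to 52.4 CPM (median 46.0) at ZT20 in controls, and at 16.9 to 20.9 CPM (median 20.1) and 15.4 to 21.9 CPM (median 17.6) in *ChAT-BKO* libraries. The times overlapped in both genotypes, and the change was -0.23 (interval -0.44 to -0.02, adjusted p = 1 from edgeR). *Nr1d1* (REV-ERB alpha) had a day-night difference of -0.20 in controls and 0.02 in *ChAT-BKO* neurons, a change of 0.23 (interval -0.09 to 0.54). One control library at ZT20 stood at 63.6 CPM against 34.2 to 40.0 CPM in the other 5, and without it the change was 0.39 (adjusted p = 0.9999 from edgeR). The unadjusted p for the change of *Nr1d1* was 0.15 in the main edgeR fit. It ran from 0.00078 to 0.28 over the alternative and leave-out fits, so this value depends on the libraries and method used. *Nfil3* was night-high in both genotypes, from a median of 6.05 to 7.66 CPM in controls and from 11.2 to 14.6 CPM in *ChAT-BKO* libraries, with a change of 0.02. *Rora* and *Rorb* had changes of 0.00 and 0.04.

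Of the activators, *Arntl* had a change of -0.43 (interval -0.90 to 0.05, adjusted p = 1 from edgeR), *Npas2* one of 0.21 with an interval from -0.53 to 0.95, *Arntl2* one of 0.11, and *Clock* one of -0.07. *Npas2* was at 0.387 to 1.61 CPM (median 1.19) and 1.04 to 2.07 CPM (median 1.46) in controls, which is near the level where counts limit the comparison. The outputs *Tef*, *Hlf*, *Usp2*, and *Wee1* had changes from -0.16 (*Usp2*) to 0.14 (*Wee1*). In controls, their day-night differences were -0.04 to 0.10, and none was called.

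**Figure D3:**
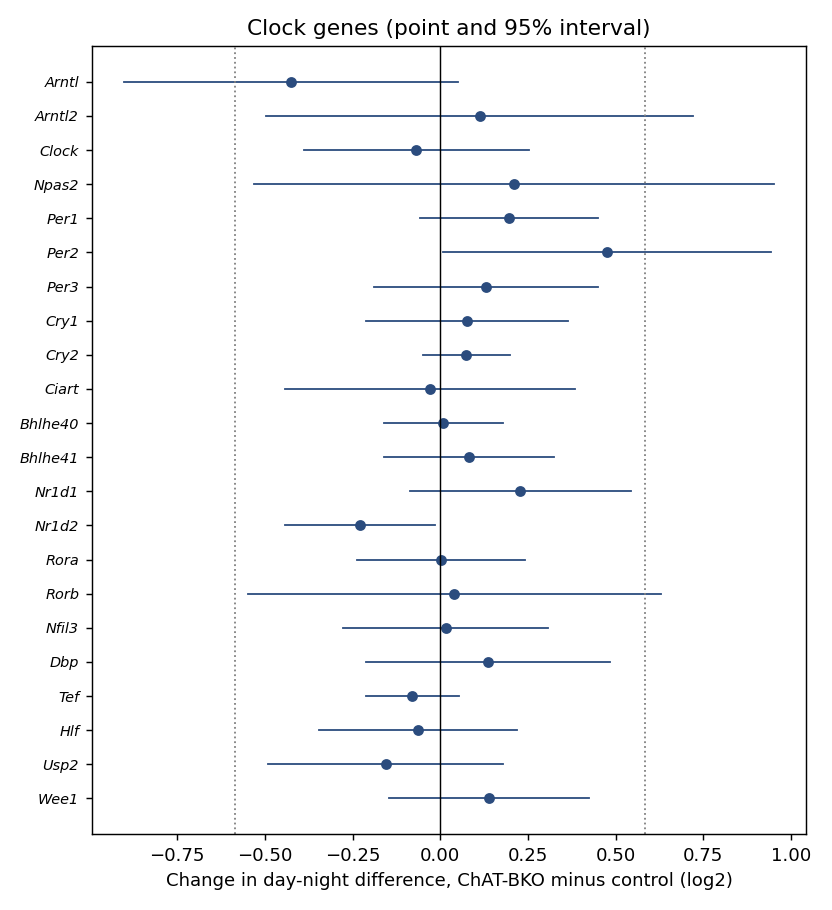
Change in day-night difference (log2, *ChAT-BKO* minus control) of 22 clock genes, as point and 95% interval; dotted lines mark 1.5-fold in either direction. The intervals of *Per2* and *Nr1d2* leave out 0 on opposite sides, and 17 of 22 lie within the dotted lines.

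Stress-response lists held many genes that were night-high for the average. These lists and those below were chosen with earlier results of these data known. The shares over all genes tested beside them are also not matched for level. Of the 570 genes called for the average, 550 had a mean of at least 1 CPM, while 8017 of the 21738 genes tested were under 1 CPM. Of 19 genes of the unfolded protein response, 11 were higher at night for the average (against 1.65% of all genes tested) and 0 by day, 2 were called night-high in controls and 7 in *ChAT-BKO* neurons, and 19 had the same sign in both genotypes. The list's median night difference was 0.13 in controls and 0.21 in *ChAT-BKO* neurons (0.00 over all genes tested in each), the change was positive for 17 of 19 with a median of 0.08 (0.00 over all genes tested), and 0 changes were called. *Hspa5* was at 438 to 541 CPM (median 504) at ZT8 and 541 to 600 CPM (median 566) at ZT20 in controls, and at 443 to 503 CPM (median 470) and 539 to 664 CPM (median 578) in *ChAT-BKO* libraries. Night and day overlapped by a small margin in controls and did not in *ChAT-BKO* libraries, with differences of 0.18 and 0.34 and a change of 0.15 (interval -0.00 to 0.31). *Pdia6*, an ER disulfide isomerase, had a night difference of 0.34 and 0.35.

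Of 21 heat shock genes, 8 were higher at night for the average (against 1.65% of all genes tested) and 0 by day, while 0 were called in controls and 5 in *ChAT-BKO* neurons. The median difference was 0.10 in controls and 0.12 in *ChAT-BKO* neurons (0.00 over all genes tested in each). The change was positive for 16 of 21, with a median of 0.02, and 3 had an unadjusted p under 0.05 (against 3.90% of all genes tested). *Dnajb4* was at 44.7 to 49.2 CPM (median 46.4) at ZT8 and 53.0 to 59.5 CPM (median 54.0) at ZT20 in controls, without overlap, and its difference was 0.23 in controls and 0.29 in *ChAT-BKO* neurons. *Chordc1*, an HSP90 cochaperone, had differences of 0.32 and 0.34. The cold-inducible RNA-binding protein genes *Cirbp* and *Rbm3* were day-high for the average (2 of 2, against 0.975% of all genes tested), with 0 called in controls alone. *Cirbp* was at a median of 70.8 and 60.1 CPM in controls and 77.9 and 53.7 CPM in *ChAT-BKO* libraries, and its times overlapped in controls and not in *ChAT-BKO* libraries. The changes were -0.32 for *Cirbp* and -0.23 for *Rbm3*, each toward a larger day-night difference and each with an unadjusted p under 0.05.

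Splicing factors held members on both sides. Of 16 SR proteins and CLK kinases, which phosphorylate them, 6 were higher at night for the average (against 1.65% of all genes tested), and the median difference was 0.18 in controls and 0.15 in *ChAT-BKO* neurons (0.00 over all genes tested in each). *Tra2a* was at 32.4 to 44.2 CPM (median 36.9) at ZT8 and 52.6 to 62.1 CPM (median 55.4) at ZT20 in controls, and at 35.2 to 43.0 CPM (median 37.7) and 47.5 to 66.3 CPM (median 53.0) in *ChAT-BKO* libraries. The times did not overlap in either genotype. *Clk1*, named after its values were seen, had a difference of 0.18 in controls and 0.70 in *ChAT-BKO* neurons, a change of 0.52 (interval 0.02 to 1.02, adjusted p = 1 from edgeR). *Srsf4*, *Srsf10*, and *Clk3* had changes of 0.05 to 0.09. Of the 70 RNA-binding protein genes that the study selected as rhythmic in a separate set of mice, 7 were night-high and 3 day-high for the average, against 1.65% and 0.975% of all genes tested. For the change, 5 had an unadjusted p under 0.05 and 66 had an interval within 1.5-fold, against 3.90% and 45.7% of all genes tested. The latter share rises with level, to 95.4% of genes from 10 to 100 CPM. *Sfpq* was among those that were night-high (0.33 and 0.25).

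For 20 cholesterol synthesis genes, 83 ribosomal protein genes, 82 respiratory chain genes, and 39 proteasome genes, 0 were called for the average, where 1.65% of all genes tested were night-high and 0.975% day-high, so that few calls would be had from lists of this size at the shares of all genes. Their median changes were -0.01, -0.04, -0.04, and -0.03, and the interval lay within 1.5-fold for 20, 80, 77, and 35 of them (against 45.7% of all genes tested). That share rises with level, to 95.4% of genes from 10 to 100 CPM and 98.8% from 100 CPM. Of 20 immediate early genes, 2 were night-high for the average (against 1.65% of all genes tested), among them *Fos*, at a median of 18.9 and 25.6 CPM in controls and 20.6 and 35.8 CPM in *ChAT-BKO* libraries (change 0.50, interval -0.00 to 1.00, adjusted p = 1 from edgeR). Of 13 glucocorticoid target genes, 2 were night-high (against the same 1.65%), with *Errfi1* at 0.22 and 0.38 and *Fkbp5* at 0.14 and 0.18.

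Some RNA of other cell types also differed with time, in the erythroid and endothelial lists. No oligodendrocyte, astrocyte, microglia, fibroblast, skeletal muscle, or excitatory and inhibitory neuron marker examined was called for the average. Lists of this size would give few calls at the shares of all genes. Of 5 erythroid genes, 3 were night-high for the average (against 1.65% of all genes tested), with a median difference of 0.66 in controls and 0.50 in *ChAT-BKO* neurons, and *Hba-a1*, an alpha globin gene, had differences of 0.82 and 0.61, though it shares reads with its near-identical copy *Hba-a2*. Of 6 endothelial markers, 1 was night-high (*Cldn5*, 0.71 and 0.75), against the same 1.65%. The median changes of the erythroid and endothelial lists were -0.10 and -0.03. Mitochondrial ribosomal RNA was night-high too, with *mt-Rnr2*, named after its values were seen, at 135 to 160 CPM (median 145) and 178 to 258 CPM (median 206) in controls and a change of 0.04. The part of these RNAs in the other night-high results was not tested.

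**Figure D4:**
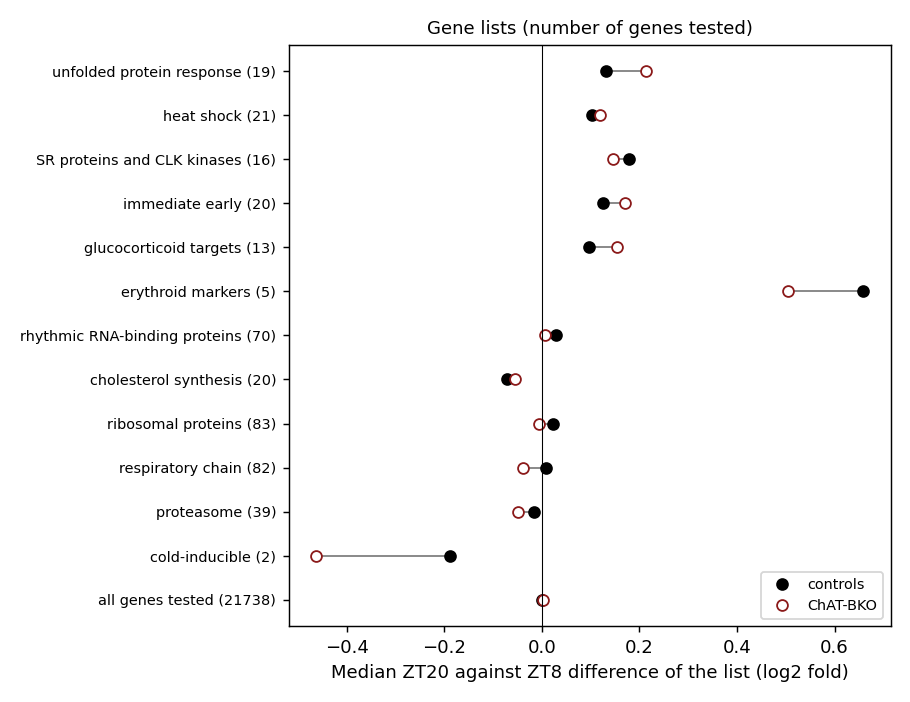
Median log2 fold of ZT20 against ZT8 for each gene list in controls (filled) and *ChAT-BKO* neurons (open), with the number of genes tested in parentheses. The unfolded protein, heat shock, and SR protein lists lie to the right of 0 in both genotypes, the 2 cold-inducible genes lie to the left, and all genes tested lie at 0.

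The detection limit sets what these counts can say. A gene's limit was taken as the change that would just reach a stated p with that gene's standard error. Over all genes the median limit was 0.49 on the log2 scale, or 1.40-fold, at an unadjusted p of 0.05, and 1.41, or 2.65-fold, at the stricter threshold that a single gene must pass under the adjustment. By level, the medians at an unadjusted p of 0.05 were 2.27 under 1 CPM, 0.54 from 1 to 10 CPM, 0.24 from 10 to 100 CPM, and 0.17 from 100 CPM. Under the adjustment they were 6.53, 1.54, 0.70, and 0.50. The interval of the change lay within 1.5-fold for 9930 genes, or 45.7%, namely 0 of 8017 genes under 1 CPM, 30.6% of those from 1 to 10 CPM, 95.4% from 10 to 100 CPM, and 98.8% from 100 CPM.

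**Figure D5:**
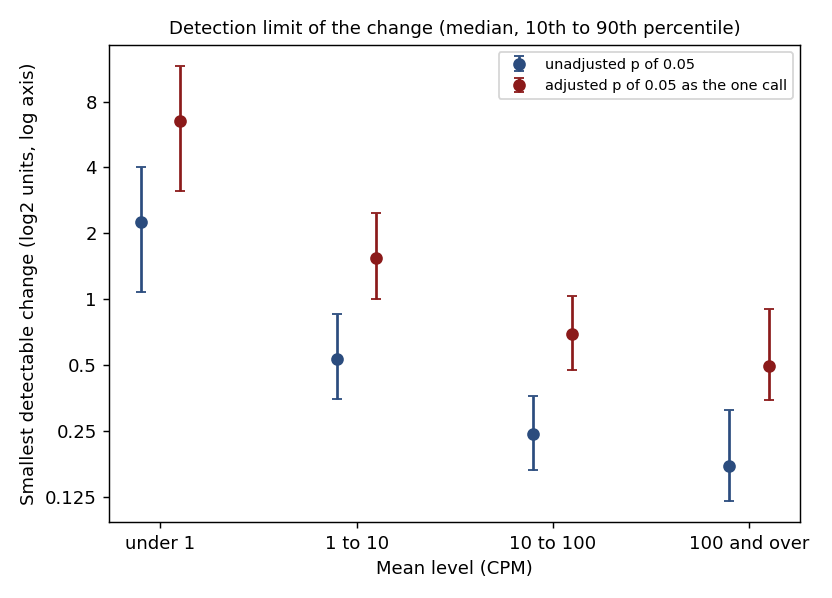
Smallest change in day-night difference (log2 units, on a log axis) that would reach an unadjusted p of 0.05 (blue) or, as the one gene called, an adjusted p of 0.05 (red), by mean level in CPM; points are medians and bars run from the 10th to the 90th percentile of genes. The median limit falls from 2.27 to 0.17 (blue) and from 6.53 to 0.50 (red) as the level rises.

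Against these limits, a full loss of the control difference would have reached an unadjusted p under 0.05 for all 31 genes called in controls with a standard error. The call in controls sets that count in advance, since it asks for a large difference against its error. The same loss would have passed the adjustment for 0 of them as a single call. For *Dbp*, the limit was 0.35 unadjusted and 1.01 under the adjustment, against a control difference of -0.86. For *Xbp1* the limits were 0.20 and 0.59 against 0.54, and for *Luc7l* 0.11 and 0.33 against 0.30. A loss measured at exactly the size of any of these differences, as the 1 change in the data, would thus not have been called. Measured values scatter around the true one, so a true loss near the limit, as for *Xbp1* or *Luc7l*, could still have been called in some samplings. Many losses at once would have lowered the threshold that each must pass. The median SD between replicates, over genes with at least 1 CPM, was 0.19 and 0.14 (log2) in controls at ZT8 and ZT20 and 0.16 and 0.19 in *ChAT-BKO* libraries.

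As a summary in each library, a score was taken as the mean log2 level of the genes night-high for the average minus that of the day-high genes. It was -0.97 to -0.83 at ZT8 and -0.45 to -0.22 at ZT20 in controls, and -0.95 to -0.78 and -0.25 to -0.12 in *ChAT-BKO* libraries. The times did not overlap in either genotype, which the choice of genes fixes in part, and the mean difference was 0.60 in controls and 0.69 in *ChAT-BKO* libraries. The genotypes overlapped at each time, and 1 control library at ZT20 lay below the other 5 (-0.31 to -0.22).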

How the data were processed

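RNA bound to HA-tagged ribosomes was immunoprecipitated from spinal cord homogenates, all on the same day, and sequenced with a stranded poly(A) kit. Per the submitters' processing notes, the authors aligned reads to mm10 with STAR 2.7.5 and obtained genes with RSEM. The deposited values are expected counts per gene and library, not normalized, and 6.11% of them were not whole. They were rounded here. RSEM divides reads between near-identical copies, so such genes are uncertain. Groups were taken from the sample labels.

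Genes whose counts came to 10 or more across the 24 IP libraries together were fitted in edgeR 4.0.16 (R 4.3.3) with TMM factors and 4 groups. Contrasts were tested with two-sided quasi-likelihood F tests, and p-values were adjusted by Benjamini-Hochberg over all genes tested. Intervals are 95% Wald intervals from the same fit, and they were not given where a group had no counts. The errors-in-variables slope used the ratio of mean squared standard errors. P-values measure the spread between mice, and no pair of libraries of a group was within sampling noise. The pooled input entered no test. Alternatives used DESeq2 1.42.0, limma 3.58.1 (voom), other filters, other size factors, a replicate block, a transcript length covariate, and each library left out. Transcript lengths were found for 87.1% of genes tested. The code was tested on simulated data.

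Named were the clock genes, the 10 genes with the smallest p for the change, the 10 night-high and 10 day-high with the smallest p for the average, and up to 4 genes of each other list. The values of 2 genes that fall under this rule are not reported here. Members and gene lists were chosen with earlier results of these data known.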

Additional observations from a re-analysis of the deposited data

Results flagged for a closer look

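Values far from the rest of their group of 6 libraries were looked for by the gap to the nearest library over the range of the group (Dixon's ratio against its 95% critical value). Of 160 groups tested, 8 held such a value, and chance gives about 1 in 20. *Nr1d1* stood at 58.2 CPM in replicate 5 of controls at ZT8, against 44.8 to 49.7 CPM in the others, and at 63.6 CPM in replicate 1 of controls at ZT20, against 34.2 to 40.0 CPM. *Hspa1a* stood at 53.5 CPM in replicate 1 of controls at ZT8, against 33.1 to 36.8 CPM, and at 51.2 CPM in replicate 6 of controls at ZT20, against 41.3 to 44.1 CPM. *Uhrf2* was low in replicate 1 of controls at ZT8, at 12.3 CPM against 16.9 to 19.2 CPM, and *Tra2a* was high in replicate 5 of *ChAT-BKO* at ZT20, at 66.3 CPM against 47.5 to 54.5 CPM. The score of night-high minus day-high genes was -0.45 in replicate 5 of controls at ZT20, against -0.31 to -0.22 in the others. The summed level of skeletal muscle markers was 211 CPM in replicate 4 of *ChAT-BKO* at ZT8, against 25.97 to 42.1 CPM. The cause of these values was not tested.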

How the results depend on the processing

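The count of changes called was 0 under each alternative, leave-outs included, except the length covariate (1, *Sprr1a*, adjusted p = 0.0129 from edgeR). Counts within a genotype or for the average moved with the method, and the cause was not tested. For controls, the 26 night-high and 6 day-high calls became 80 and 78 with DESeq2, 45 and 19 with filterByExpr, 42 and 23 with voom, and 226 and 270 with the length covariate. For *ChAT-BKO*, the 104 and 36 became 185 and 135 with DESeq2, 304 and 207 with the length covariate, and 50 and 12 with its own 12 libraries alone, and filterByExpr gave 73 day-high calls. For the average, the 358 and 212 became 808 and 820 with the length covariate, and DESeq2 called 414 day-high.

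Without 1 library at a time, controls gave 14 to 32 night-high and 2 to 14 day-high calls, *ChAT-BKO* 57 to 117 and 16 to 48, and the average 253 to 374 and 156 to 218. Night-high calls in controls fell to 15, 15, and 14 without ZT8 replicate 1, ZT20 replicate 1, and ZT20 replicate 3. Day-high calls in controls became 2 without control ZT8 replicate 1 or ZT20 replicate 3, 3 without control ZT8 replicates 2 or 4, ZT20 replicates 1 or 4, or *ChAT-BKO* ZT8 replicate 3, 10 without *ChAT-BKO* ZT20 replicates 3 or 4, and 14 without control ZT20 replicate 5. Night-high calls in *ChAT-BKO* became 64, 58, and 57 without ZT8 replicates 3, 4, and 5 and 65 and 69 without ZT20 replicates 3 and 6, and day-high calls 20, 16, and 20 without ZT8 replicate 3 and ZT20 replicates 3 and 6.

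The slope of 1.13 was 0.86 with the replicate block, 0.68 over all genes tested, 0.82 over genes called in controls, and 1.496 over those called in *ChAT-BKO* (0.94 with voom, also below 1). It was 1.18 over genes of at least 1 CPM called for the average, an alternative chosen after seeing the data, like the sum of *Hspa1a* and *Hspa1b*. The labels give a replicate number in each group, but correlations of same-numbered libraries' deviations ran from -0.28 to 0.36, with 8 of 36 over 0.1 and 4 of 24 libraries closest to their own number. These numbers were not taken as pairs. The replicate block gave 0 changes, 26 and 6 calls in controls, 90 and 35 in *ChAT-BKO*, and 310 and 170 for the average. Only the 36 genes for which upstream windows were sought, not all genes named, were followed through the refits. Their changes stayed on their side of the threshold in 1116 refits, and 1 gained a call (*Sprr1a* with the length covariate). Their sign turned in some refits where the change was near 0, in 11 each for *Uhrf2*, *Chpf2*, and *Srek1*, 9 for *Nfil3*, 6 for *Ciart*, 4 for *Xbp1*, 3 each for *Luc7l* and *mt-Rnr2*, 2 for *Prpf38b*, and 1 for *Prkab1*. Depth limited the comparison most under 1 CPM, where no gene's interval lay within 1.5-fold.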
